A study of Sus scrofa with 4 samples.

Results

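Kidney RNA was compared between 2 transplanted pig kidneys, 1 of each donor genotype. The 4-week graft came from a GalT-/-;hCD39;hCD55 pig and had been in a non-human primate for 4 weeks. The 6-week graft came from a GalT-/-;hCD39;hCD46;hCD55;TBM pig and was taken after 6 weeks. Both donors therefore lacked the galactosyltransferase that makes the alpha-Gal sugar and carried human CD39 and CD55, and the 6-week graft also carried human CD46 and thrombomodulin (TBM). The series was designed to choose the genotype that better eases rejection. An untransplanted kidney of each genotype served as a reference, which makes 4 libraries in 4 groups. The compared features were the 17395 gene symbols, of 26466 in all, with 10 or more counts in either graft. Of the rest, 4098 had no count in either graft and 4973 had some counts but under that minimum. At the limit, 275 symbols had a higher graft count of exactly 10 and 289 of exactly 9.

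Genotype, weeks, recipient and any batch of preparation go together in this pair and cannot be told apart. The sources used here do not give the transgene promoters, the number of animals, the sex and age of the pigs, or the recipients and their treatment. They also do not tie a graft to an untransplanted kidney of the same pig. With 1 library a side there is no replicate check, and no p-value is given. Each log2 ratio is that of the 6-week graft to the 4-week graft, so positive values are higher in the 6-week graft. The bracketed range is an exact 95% interval (Clopper-Pearson) of the ratio, which covers counting error only. Genes count as higher or lower where the levels stood at least 2-fold apart and the interval left out 1. Counts are raw reads per gene, and scaled CPM are CPM values after TMM scaling.

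A pig kidney placed in a primate meets preformed and induced antibodies, complement, clotting and recipient leukocytes. CD46 and CD55 are membrane proteins that restrain complement, CD39 degrades extracellular ATP and ADP, and thrombomodulin turns thrombin toward activation of the anticoagulant protein C. Proximal tubule cells reabsorb most of the filtrate and live on fatty acid oxidation. When injured they lose transporters and metabolic enzymes and express genes such as LCN2, SOX9 and SPP1.

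Total counts were 11566041 in the 4-week graft and 10346863 in the 6-week graft, and 14092905 and 13226372 in the untransplanted references, CD39/CD55 first. A count of 0 allows up to 3 counts, which is 0.242 scaled CPM in the 4-week graft and 0.29 in the 6-week graft. Ribosomal RNA loci took 22.4% of counts in the 4-week graft and 18.9% in the 6-week graft, against 10.8% and 12.6% in the untransplanted kidneys. Cytosolic ribosomal protein genes took 7.22% and 4.25% in the grafts. Mitochondrially encoded genes took 4.23% and 12.6%. The part of these shares in the other results was not tested. Kidney markers were present in both grafts, with 2622 and 831 counts of the megalin gene LRP2, 6945 and 2214 of the uromodulin gene UMOD and 712 and 1118 of the podocyte gene PODXL.

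In the 6-week graft 1977 genes (11.4%) were called higher and 1980 (11.4%) lower than in the 4-week graft. Those 11.4% each way are the background for the count of called members in every gene list below. The median log2 ratio over all 17395 genes was -0.0015. Most calls were between 2-fold and 4-fold, with 1579 higher and 1480 lower. A difference over 8-fold was seen for 93 genes that were higher and 156 that were lower. By the same rule the untransplanted kidneys of the 2 genotypes differed in 2865 of 17089 genes (16.8%), with 1454 (8.51%) higher and 1411 (8.26%) lower in the kidney with CD46 and TBM. Among genes with 100 or more counts in either graft, 8.7% were called higher and 10.1% lower. Among those with 100 or more counts in either untransplanted library, 5.79% were higher and 7.61% lower. Of 2488 lncRNA genes 17.8% were higher and 15.9% lower, and of 14852 protein-coding genes 10.3% and 10.5%. When every interval had to lie wholly past 2-fold, 751 genes were higher and 819 lower.

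**Figure D1:**
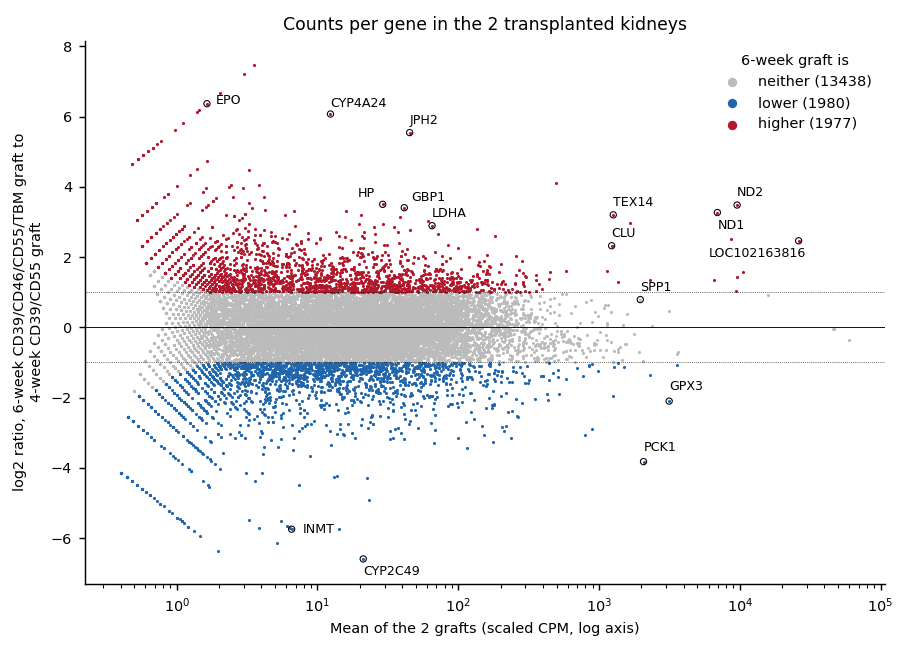
Each point is 1 of 17395 genes, with the mean level in the 2 grafts in scaled CPM (log axis) against the log2 ratio of the 6-week CD39/CD46/CD55/TBM graft to the 4-week CD39/CD55 graft. Red points are the 1977 genes called higher and blue points the 1980 called lower, dotted lines mark 2-fold, and PCK1 stands out among abundant genes at -3.82.

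The untransplanted pair shares no library with the graft pair, so it gives the difference between 1 kidney of each genotype outside a recipient. Genotype and individual animal cannot be told apart in it. Restricting to genes with 10 or more counts in an untransplanted library as well left 16316, of which 10.4% were higher and 11.1% lower between the grafts. Of the 1700 higher genes that also had 10 or more counts in an untransplanted library, 341 (20.1%) were also called higher in the untransplanted kidney with CD46 and TBM, 74 were lower there, and 1285 (75.6%) were not called. Of 1814 lower genes, 335 (18.5%) were called lower in the untransplanted pair, 88 higher, and 1391 not called. Over all 16316 such genes 8.06% were called higher and 7.84% lower between the untransplanted kidneys. Across 10033 genes with 100 or more counts in both pairs, Pearson's r of the 2 log2 ratios was 0.413 and Spearman's rho 0.421, a description over genes, which are not independent replicates. The graft ratio differed from the untransplanted ratio by at least 2-fold, with a Wald counting interval that excluded 1, in 3864 genes (22.2%), 1822 upward and 2042 downward. That difference of log2 ratios is called the excess over the untransplanted pair in what follows.

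**Figure D2:**
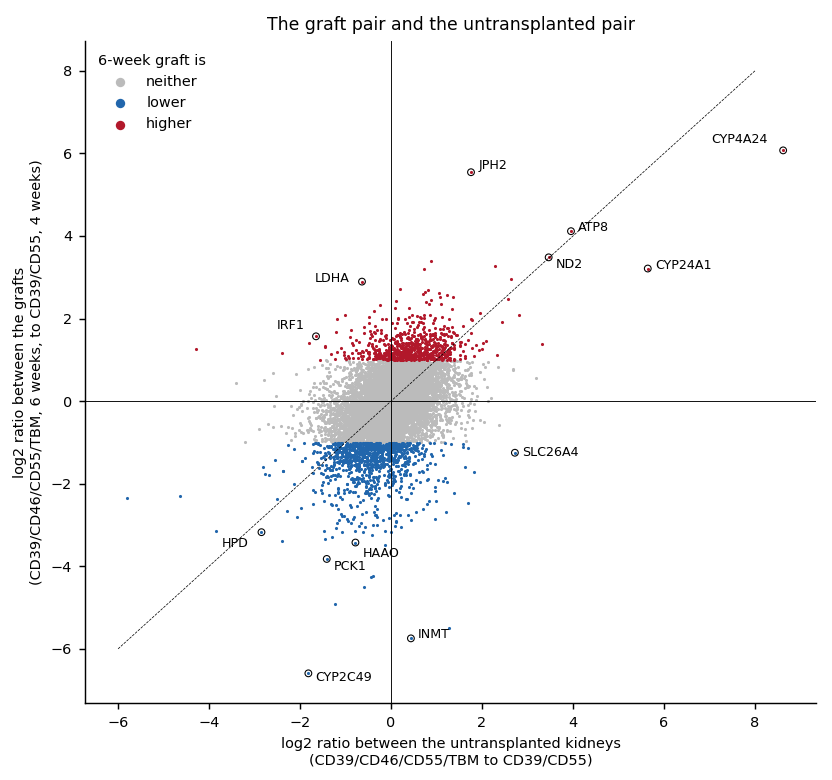
Each point is 1 of 10033 genes, with the log2 ratio of CD39/CD46/CD55/TBM to CD39/CD55 between untransplanted kidneys on the x axis and between grafts on the y axis. Points near the dashed line, such as ND2 and ATP8, differed alike in both pairs, whereas LDHA, INMT and PCK1 lie well off it.

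Among pig counterparts of the edited genes, 2 of 5 (40.0%) were called higher and none lower. The galactosyltransferase gene, listed as GGTA1P, had 303 counts in the 4-week graft and 312 in the 6-week graft. Both donors carry its loss, and reads outside the edited part check nothing about the edit. Whether human transgene reads aligned to these pig genes is unknown, so the values do not measure the transgenes. The pig thrombomodulin gene THBD had 16 counts in the 4-week graft and 65 in the 6-week graft, a log2 ratio of 2.25 (1.48 to 3.17). In the untransplanted kidneys the order was the opposite, with 200 counts for the CD39/CD55 genotype and 102 for the other. Pig CD55 had 27 and 60 counts in the grafts (1.40, 0.73 to 2.12) and was called higher. CD46 had 1036 and 1412 counts (0.70) and ENTPD1, which encodes CD39, 153 and 255 (0.99), both short of 2-fold.

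Proximal tubule genes were lower in the 6-week graft. Of 42 members of the list, 17 (40.5%) were called lower and 4 (9.52%) higher, against 11.4% each way over all genes, and the median log2 ratio was -0.77. In these bulk libraries fewer cells of a type and less RNA per cell cannot be told apart. PCK1, the rate-limiting enzyme of gluconeogenesis (chromosome 17, 57930507 to 57936523), had 47943 counts in the 4-week graft and 2834 in the 6-week graft. Its log2 ratio of -3.82 (-3.88 to -3.77) was the lowest of the list. The untransplanted kidneys had 90982 and 31480 counts, so CD39/CD55 had the higher level in both pairs. The excess of PCK1 over the untransplanted pair was -2.41.

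Several metabolic enzymes of this segment were called lower. FBP1, another gluconeogenic enzyme, had 4975 and 799 counts (-2.38), and the fructose enzyme KHK had 100 and 17 (-2.26). HPD, an enzyme of tyrosine breakdown, had 728 and 67 counts (-3.17), but it was already lower in the untransplanted kidney with CD46 and TBM, at 18 counts against 144.

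A regulator of the proximal program was lower too. HNF4A, a transcription factor that maintains proximal tubule identity, had 3407 counts in the 4-week graft and 819 in the 6-week graft (-1.80), against 2860 and 3303 in the untransplanted kidneys. Among membrane proteins, the water channel gene AQP1 had 5124 and 1032 counts (-2.05), the bicarbonate cotransporter SLC4A4 8360 and 1881 (-1.89), and LRP2 2622 and 831 (-1.40).

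Other genes of the same segment were not called. The phosphate transporter SLC34A1 had 890 and 876 counts in the grafts, against 12607 and 12828 in the untransplanted kidneys. The glucose transporter SLC5A2 had 208 and 166, and DAB2, an endocytic adaptor, 8562 and 7256. The grafts were close to each other in these genes. Those called higher were the sulfate transporter SLC13A1 with 127 and 543 counts (2.35), the dicarboxylate transporter SLC13A3 with 249 and 587 (1.49), the glucose transporter SLC2A2 with 259 and 770 (1.83), and CYP24A1. CYP24A1, the enzyme that inactivates vitamin D (chromosome 17, 55110546 to 55130328), had 49 and 383 counts in the grafts and 26 and 1221 in the untransplanted kidneys. CYP27B1, which activates vitamin D, went the other way, with 155 and 26 counts in the grafts (-2.29) and 1704 and 63 in the untransplanted kidneys. Both vitamin D enzymes thus had the same order in the untransplanted pair.

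**Figure D3:**
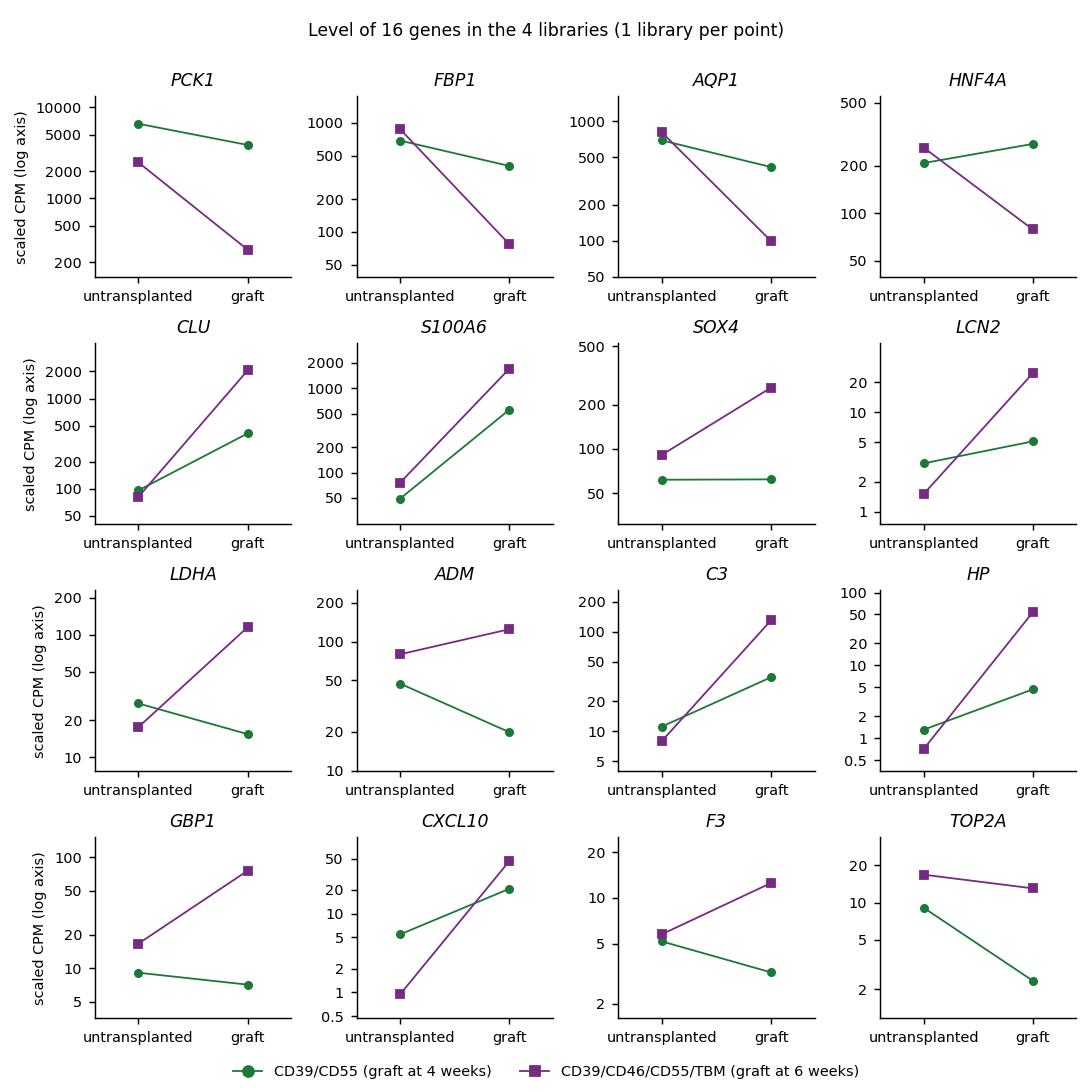
Scaled CPM (log axes that differ between panels) of 16 genes in the 4 libraries, 1 library per point, with lines joining the untransplanted kidney and graft of a genotype. PCK1, FBP1, AQP1 and HNF4A are lowest in the 6-week graft, and CLU, LCN2, LDHA, C3, HP, GBP1 and F3 are highest there.

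Genes of fatty acid oxidation and peroxisomes, which fuel the proximal tubule, were lower in the 6-week graft in 7 of 30 cases (23.3%) and higher in 2, with a median of -0.61. The peroxisomal genes CAT and ACAA1 had 5801 and 1629 counts (-1.57) and 3359 and 978 (-1.52). The 2 higher members were regulators, PPARA with 35 and 79 counts (1.42) and PPARGC1A, a coactivator of mitochondrial biogenesis, with 1863 and 3691 (1.24). Mitochondrial enzymes of the list differed among themselves. ETFA, DECR1 and HADHB had log2 ratios between -0.16 and 0.05, but ECI1 was called lower, with 574 and 177 counts (-1.44). ECI1 was also called lower in the untransplanted kidney with CD46 and TBM, with 1124 counts against 2464 (-1.01). Among nuclear genes of oxidative phosphorylation none of 25 was called lower and 1, SDHD, higher, with a median of -0.30.

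Mitochondrially encoded transcripts were higher in the 6-week graft. Of 13 genes, 10 (76.9%) were called higher and none lower, with a median of 1.44. ND2, a subunit of complex I (mitochondrial genome, 5087 to 6128), had 19469 counts in the 4-week graft and 182090 in the 6-week graft (3.48, 3.46 to 3.50). The untransplanted kidneys had 23133 and 235440 counts of ND2, a log2 ratio of 3.46, so the ratio was close to that of the grafts. ATP8 likewise had 663 and 9629 counts in the grafts (4.12) and 800 and 11451 in the untransplanted kidneys. ND4 differed from these, with 65964 and 163724 counts in the grafts (1.57) but 347192 and 239600 in the untransplanted kidneys. COX3 had 75548 and 130681 (1.05), and was not called when total counts were used for scaling (0.95). COX1, ND4L and ATP6 stayed under 2-fold at 0.63, 0.49 and 0.92. The genes of 1 circular genome thus differed by ratios from 0.49 to 4.12. The sources used here do not say how reads of their nuclear copies were counted.

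**Figure D4:**
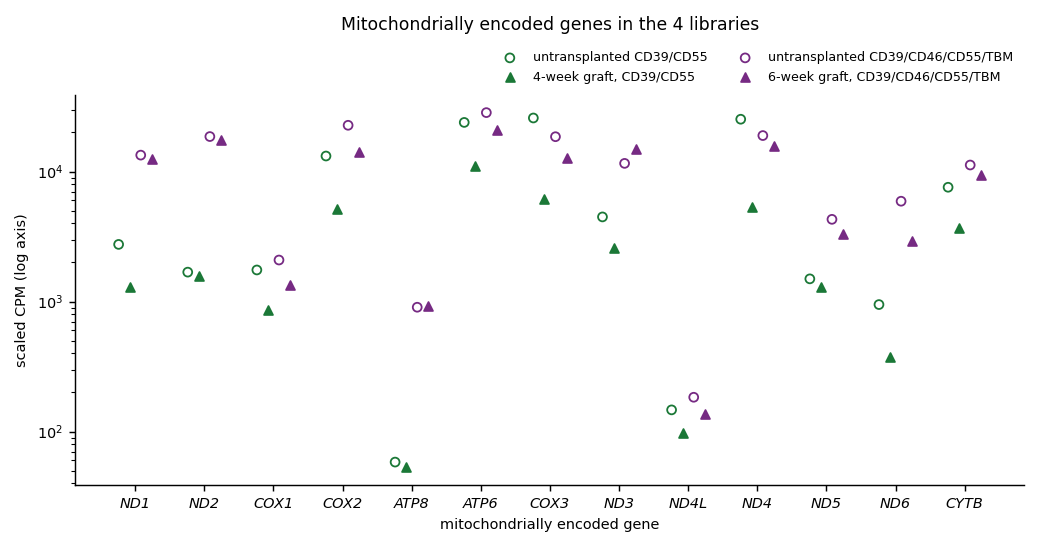
Scaled CPM (log axis) of the 13 mitochondrially encoded genes in order along the genome, with open circles for untransplanted kidneys, triangles for grafts, green for CD39/CD55 and purple for CD39/CD46/CD55/TBM. ND1, ND2 and ATP8 are higher in the CD39/CD46/CD55/TBM library in both states, and ND4 and COX3 are lowest in the 4-week graft.

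In the remaining nephron the differences went both ways. Among 25 genes of the thick ascending limb and distal convoluted tubule, 3 were higher and 2 lower, with a median of 0.02 (-0.08 with total counts for scaling). UMOD, which encodes uromodulin of the ascending limb, had 6945 and 2214 counts in the grafts (-1.39), and 45070 and 15092 in the untransplanted kidneys (-1.46), so the 2 ratios were close. SLC12A3, the thiazide-sensitive cotransporter, had 81 and 23 counts (-1.54). The tight junction gene CLDN16 had 104 and 215 (1.30), the calcium-sensing receptor CASR 50 and 108 (1.36), and CLDN14 4 and 17 (2.22, 0.73 to 4.38). SLC12A1, the loop diuretic target, had 1134 and 1550 counts (0.71).

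Collecting duct and intercalated cell genes had 5 of 23 members higher and 3 lower, with a median of 0.36. Subunits of the intercalated cell proton pump were higher, ATP6V1G3 with 410 and 1095 counts (1.67) and ATP6V0D2 with 365 and 791 (1.37), as was the exchanger SLC4A9 with 28 and 122 (2.36). ATP6V1B1, another subunit, had 3141 and 1793 (-0.55). The untransplanted kidneys had 319 and 753 counts of ATP6V1G3 (1.355, called higher) and 239 and 392 of ATP6V0D2 (0.83, not called), the same order as the grafts. The 3 lower members were AQP2 with 17 and 2 counts (-2.55, -5.99 to -0.75), the steroid enzyme HSD11B2 with 23 and 8, and SLC26A4, the bicarbonate exchanger pendrin, with 490 and 172 (-1.25). All 3 were called higher, not lower, in the untransplanted kidney with CD46 and TBM. SLC26A4 had 86 and 526 counts there.

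Podocyte and glomerular genes leaned higher in the 6-week graft, with 4 of 22 (18.2%) called higher, 1 (4.55%) lower and 18 above 0. The median was 0.66, against 0.43 between the untransplanted kidneys. LMX1B, a podocyte transcription factor, had 8 and 45 (2.68). NPHS1, encoding nephrin, had 21 and 19 (0.12), and TCF21 was lower, with 77 and 31 (-1.04).

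Tubular injury and repair genes were higher in the 6-week graft. Of 37 members, 18 (48.6%) were called higher and 1 lower, with a median of 0.98. In the untransplanted pair the median of these genes was -0.24, with 3 higher and 7 lower. CLU, which encodes the secreted chaperone clusterin, had 5074 counts in the 4-week graft and 21240 in the 6-week graft, a log2 ratio of 2.32 (2.28 to 2.37). The untransplanted kidneys were close to each other in CLU, with 1314 and 1025 counts. LCN2, a marker of tubular damage, had 63 and 255 counts (2.27, 1.87 to 2.70) against 42 and 19 in the untransplanted kidneys.

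Other called members of the list were epithelial regulators, keratins and surface proteins. The transcription factor genes SOX4 and SOX9 had 767 and 2698 counts (2.07) and 41 and 101 (1.55). ITGB6, an integrin that activates TGF-beta, had 89 and 328 (2.13). The calcium-binding protein gene S100A6 had 6899 and 17672 counts (1.61), S100A2 370 and 789 (1.35), and DCDC2, a ciliary protein gene, 2784 and 6912 (1.57). The keratins KRT8 and KRT18 were called higher at 1.05 and 1.18, KRT8 not with total counts for scaling (0.96).

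Several injury genes were not called. SPP1, which encodes osteopontin, had 17836 and 25798 counts (0.79), the protease MMP7 1412 and 1646 (0.48), VIM 4685 and 4193 (0.10) and NUPR1 3179 and 3372 (0.34). All 4 stayed under 2-fold. The hyaluronan receptor CD44 was the 1 member called lower, with 3152 and 1075 counts (-1.29). The injury marker HAVCR1 did not reach 10 counts in either graft.

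**Figure D5:**
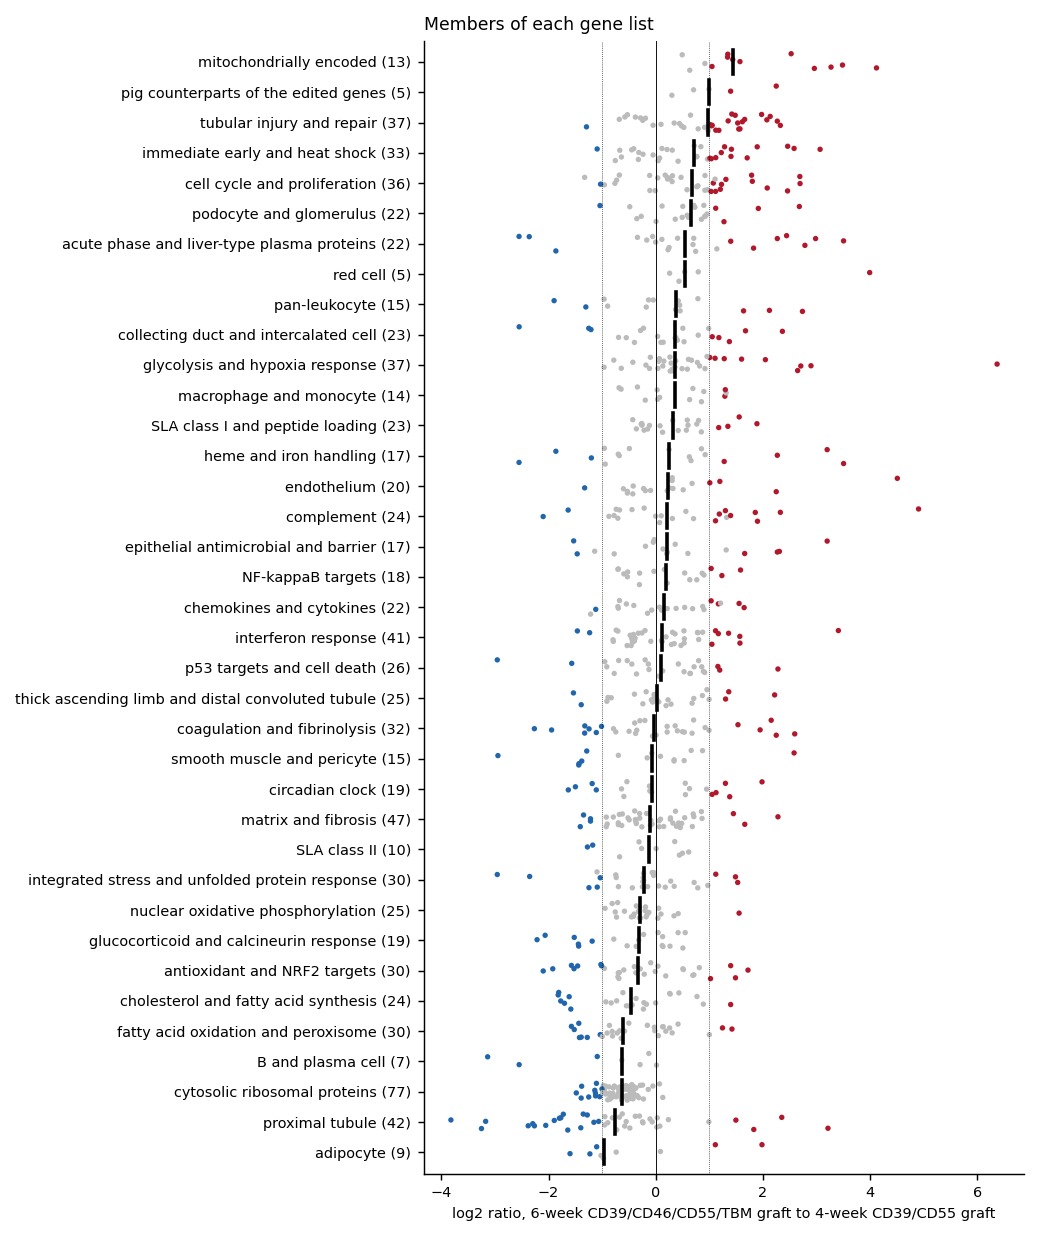
Each point is the log2 ratio (6-week graft to 4-week graft) of 1 member of a gene list with 5 or more members, red if called higher, blue if called lower and grey otherwise. The bars are medians, from 1.44 for mitochondrially encoded genes down to -0.77 for the proximal tubule and -0.98 for 9 adipocyte genes, and dotted lines mark 2-fold. EPO and C5AR1, at 0 in the 4-week graft, are drawn at fitted values that depend on the prior count.

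Interferon response genes went both ways. Of 41 members, 7 (17.1%) were called higher and 2 lower, with a median of 0.12 and 22 above 0. GBP1, a guanylate-binding protein (chromosome 4, 127425699 to 127442132), had 88 and 784 counts in the grafts (3.41, 3.09 to 3.75), and 125 and 211 in the untransplanted kidneys. IRF1, a transcription factor, had 131 and 326 (1.57), and GBP2 97 and 168 (1.05, or 0.95 and not called with total counts for scaling). The chemokine gene CXCL10 had 256 and 481 counts (1.17), although the untransplanted kidney with CD46 and TBM had fewer than its counterpart, 12 against 75. MX2, ZBP1 and IFI44 were the other 3. Other members were below 0 without being called, with 379 and 182 counts of ISG15 (-0.80), 3693 and 1783 of IFI6 (-0.79), and 849 and 425 of OAS2 (-0.74). OAS1 was called lower, with 105 and 37 (-1.23), as was LGALS3BP. CXCL9 and IDO1 had 6 counts or fewer in each graft.

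Genes of SLA class I, the pig MHC, and of peptide loading had 4 of 23 members (17.4%) higher and none lower, with a median of 0.32. The class I genes SLA-1 and SLA-2 had 13437 and 12269 counts (0.13) and 6638 and 8419 (0.60), and B2M 6680 and 7464 (0.42). These near-identical genes may share reads. NLRC5, the class I transactivator, had 21 and 66 counts (1.89), the peptide transporter TAP1 224 and 423 (1.17), and the immunoproteasome gene PSMB10 165 and 351 (1.34). SLA-5 was the other. Class II genes had a median of -0.13, with 2 of 10 lower. CIITA, their transactivator, had 328 and 113 counts (-1.27) and SLA-DOA 36 and 13, while SLA-DRA had 324 and 272 (0.01, or -0.09 with total counts for scaling).

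Pig leukocyte genes were scarce in both grafts. Of 27 macrophage and monocyte genes, 14 reached 10 counts, and 2 of these (14.3%) were called higher and none lower, with a median of 0.35. The scavenger receptor MRC1 had 27 and 56 counts (1.30) and CD68 11 and 23 (1.29). C1QC had 0 counts in both grafts, C1QB 1 and 2, CSF1R 2 in each and TYROBP 1 and 6. The summed level of the whole list was 324.1 scaled CPM in the 4-week graft and 578.1 in the 6-week graft, most of it GPNMB with 3290 and 5120 counts (0.90). Injured tubule cells can also express GPNMB. Among 15 measured pan-leukocyte genes 3 were higher and 2 lower, with a median of 0.37. PTPRC, which encodes CD45, had 27 and 31 counts (0.45), HCLS1 20 and 74 (2.12), EVI2B 10 and 58 (2.74) and CORO1A 24 and 5 (-1.90). The summed level of that list was 49.34 and 58.23 scaled CPM.

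Lymphocyte and neutrophil markers allowed hardly any comparison. Only 3 of 25 T and NK cell genes reached 10 counts, and CD3E had 3 and 5 counts. FOXP3 was called lower, with 48 and 14 (-1.48), but its untransplanted values of 142 and 43 had the same order. Of 15 B and plasma cell genes 7 were measured and 3 were lower, TNFRSF17 with 152 and 14 counts (-3.14), JCHAIN with 24 and 3 (-2.55, -5.12 to -1.02) and XBP1, which secretory epithelium also uses, with 689 and 270 (-1.09). TNFRSF17 was also called lower in the untransplanted kidney with CD46 and TBM, with 60 counts against 183 (-1.48). Its excess over the untransplanted pair was -1.65. JCHAIN and XBP1 were not called in that pair. MS4A1 had 3 counts in each graft. Of 13 neutrophil genes 1 was measured, LTF, with 1 and 11 counts (3.20, 0.94 to 9.14). All of these are pig gene counts, and primate cells were not measured as such.

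Chemokines and cytokines had 4 of 22 members (18.2%) higher and 1 (4.55%) lower, with a median of 0.16. Besides CXCL10 the higher members were IL15, a growth factor of T and NK cells, with 47 and 124 counts (1.65), the macrophage growth factor CSF1 with 27 and 67 (1.55), and IL18 with 22 and 38 (1.03, or 0.94 and not called with total counts for scaling). The epithelial chemokine CCL28 was lower, with 123 and 47 (-1.12). CXCL16 had the most counts, with 1563 and 2104 (0.69). Targets of NF-kappaB had 3 of 18 (16.7%) higher and none lower, with a median of 0.19. They were NFKBIZ with 262 and 656 counts (1.58), the inhibitor TNFAIP3 with 189 and 372 (1.23), and NFKB1 with 358 and 613 (1.03), which was not called with total counts for scaling (0.94). NFKBIZ was also called higher in the untransplanted kidney with CD46 and TBM, with 153 counts against 69 (1.26). TNFAIP3 and NFKB1 were not called there.

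Complement genes were higher more often than lower, with 8 of 24 (33.3%) against 2, although the median was 0.21. C3, the central component, had 431 counts in the 4-week graft and 1343 in the 6-week graft (1.90, 1.74 to 2.06), and 153 and 101 in the untransplanted kidneys. C7 of the membrane attack complex had 759 and 2299 (1.86) and C6 39 and 71 (1.11). CLU and CD55, which both restrain complement, and MASP2 of the lectin pathway (60 and 124 counts, 1.30) were also higher. C6 and MASP2 were called higher in the untransplanted kidney with CD46 and TBM too. Their untransplanted counts were 15 and 42 (1.57) and 43 and 104 (1.38). C5AR1, the C5a receptor of myeloid cells, had 0 and 12 counts. Its counting interval began at a log2 ratio of 1.73, and taking the 0 as 3 counts gave 4.78-fold. The lower members were CFB of the alternative pathway, with 306 and 82 counts (-1.64), and C8B with 79 and 15 (-2.10). Both were also called lower in the untransplanted kidney with CD46 and TBM, CFB with 18 counts against 82 and C8B with 38 against 99. C1R and C1S of the classical pathway had 1710 and 1534 (0.10) and 2108 and 1027 (-0.78).

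Coagulation and fibrinolysis genes split, with 5 of 32 (15.6%) higher and 7 (21.9%) lower and a median of -0.03. F3, which encodes tissue factor, the starter of clotting, had 40 and 130 (1.95). THBD is given above, PLAUR, the urokinase receptor, had 53 and 129 (1.53), and SERPIND1 had 12 and 46 (2.15). On the lower side, CPB2, an inhibitor of fibrinolysis, had 2031 and 353 counts (-2.27) and prothrombin F2 570 and 190 (-1.32). F9 had 171 and 60 (-1.25) and plasminogen PLG 31 and 10 (-1.33). F10, F11 and SERPINA5 were the other lower members. The fibrinogen genes FGB, FGG and FGA had 1535 and 765 (-0.75), 620 and 422 (-0.30), and 52 and 63 (0.53), all under 2-fold.

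Acute phase and other plasma protein genes had 7 of 22 (31.8%) higher and 3 (13.6%) lower, with a median of 0.55. HP, which encodes the haemoglobin scavenger haptoglobin (chromosome 6, 14980382 to 14985245), had 58 and 554 counts in the grafts (3.50, 3.12 to 3.93). In the untransplanted kidneys HP had 18 and 9. SAA3, a serum amyloid A gene, had 142 and 819 (2.78), the lipopolysaccharide-binding protein gene LBP 25 and 75 (1.82), and APOC3 19 and 88 (2.44). The lower genes were the haem scavenger HPX, with 676 and 96 counts (-2.55), transferrin TF, with 720 and 165 (-1.86), and APOB. The 2 scavengers of haem and haemoglobin thus stood in opposite order. Ceruloplasmin CP was at 2691 and 2672 (0.25). Of epithelial antimicrobial genes, 4 of 17 (23.5%) were higher and 2 (11.8%) lower. REG3G was at 443 and 1170 (1.66), the mucin MUC4 at 18 and 76 (2.31) and the protease inhibitor SLPI at 534 and 154 (-1.53). WFDC2 had the most counts, 23503 and 17202 (-0.19).

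Endothelial genes had 4 of 20 higher and 1 lower, with a median of 0.24. PECAM1, CDH5 and VWF were not called, with 521 and 407 counts (-0.10), 109 and 130 (0.51) and 44 and 59 (0.68). EHD3 was the lower member, with 34 and 11 (-1.33). SELE, which encodes E-selectin of activated endothelium, had 1 and 28 counts (4.51, 2.47 to 10.42), with 0 and 1 in the untransplanted kidneys. THBD, ROBO4 (17 and 33, 1.20) and FLT1 (205 and 345, 1.01) were the other higher members, FLT1 not with total counts for scaling (0.91). The adhesion genes ICAM1 and VCAM1 had 585 and 567 (0.21) and 318 and 184 (-0.53).

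Glycolysis and hypoxia response genes were higher in 9 of 37 cases (24.3%) and lower in none, with 30 above 0 and a median of 0.36. In the untransplanted pair none was higher, 9 were lower and the median was -0.43. LDHA, which makes lactate, had 191 and 1191 counts in the grafts (2.90, 2.68 to 3.13) and 377 and 223 in the untransplanted kidneys. The lactate exporter SLC16A3 had 15 and 84 (2.71) and the vasodilator peptide gene ADM 246 and 1290 (2.65). The glycolytic regulator PFKFB3 had 273 and 943 (2.04), the hexokinase HK2 51 and 130 (1.60), and PKM 1828 and 3704 (1.28). EPO, which encodes erythropoietin of hypoxic interstitial cells, had 0 and 34 counts. Its counting interval began at a log2 ratio of 3.38, and taking the 0 as 3 counts gave 13.6-fold. Other hypoxia targets were close, with CA9 at 42 and 45 (0.36), EGLN3 at 258 and 260 (0.27) and NDRG1 at 5754 and 5269 (0.13).

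Cell cycle genes were higher in the 6-week graft, with 12 of 36 (33.3%) called higher and 1 lower and a median of 0.67. TOP2A, a topoisomerase of dividing cells, had 29 and 135 counts in the grafts (2.46, 1.89 to 3.11), and 125 and 213 in the untransplanted kidneys. The 4-week graft was thus the low library. CENPF had 28 and 153 (2.69) against 96 and 156, and BIRC5 7 and 26 (2.08) against 55 and 41. MKI67 had 15 and 26 (1.03, or 0.93 and not called with total counts for scaling) and AURKA 17 and 50 (1.79). PCNA was lower, with 52 and 21 (-1.03). The replication licensing genes MCM2, MCM4 and MCM6 had ratios between -0.11 and 0.22.

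Immediate early and heat shock genes were higher in 12 of 33 cases (36.4%) and lower in 1, with a median of 0.72. In the untransplanted pair 10 of them were higher, 1 lower, and the median was 0.41, so the same order was seen outside a recipient. JUN had 1061 and 2160 counts (1.28), EGR1 110 and 215 (1.22), KLF4 48 and 150 (1.89), MYC 25 and 69 (1.71) and FOSL1 7 and 34 (2.46). FOS and FOSB had 3 and 17 (2.58, 0.97 to 5.17) and 1 and 10 counts. These genes also respond to handling of tissue, and the part of handling was not tested. Of 30 stress response genes 3 were higher and 5 lower, with a median of -0.23. SESN2, a sensor of amino acid and oxidative stress, had 719 and 77 counts (-2.96), while ATF4 had 1854 and 1752 (0.18) and HSPA5 3051 and 2146 (-0.25). Of 26 p53 target and cell death genes 3 (11.5%) were higher, among them MDM2 and BAX, and 2 (7.69%) lower. Their median was 0.09 (-0.0036 with total counts for scaling).

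Matrix and fibrosis genes were much alike, with 3 of 47 (6.38%) higher, 4 (8.51%) lower and a median of -0.10. COL1A1 had 947 and 340 counts (-1.22), and the proteoglycans DCN and LUM 2215 and 697 (-1.41) and 135 and 44 (-1.35). THBS2 was the other lower member. ELN, SPARC and LOXL2 were higher, with 8 and 34 (2.28), 47 and 125 (1.66) and 44 and 101 (1.45). FN1 had 702 and 788 (0.42) and COL4A1 2633 and 3077 (0.48). Smooth muscle and pericyte genes had 5 of 15 (33.3%) lower and 1 (6.67%) higher. The lower ones included MYLK with 1899 and 586 (-1.44) and DES with 185 and 57 (-1.43). ACTA2 had 340 and 302 (0.09, or -0.01 with total counts for scaling). Adipocyte genes, a check for perirenal fat, had 9 of 15 members measured, 2 (22.2%) higher and 3 (33.3%) lower. ADIPOQ and LEP did not reach 10 counts.

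The list for glucocorticoid response and calcineurin signalling, both acted on by drugs used against rejection, had 6 of 19 (31.6%) lower and none higher. Its median was -0.32. The calcineurin members RCAN1 and NFATC1 were not called, with 484 and 417 counts (0.04) and 113 and 65 (-0.535). PDK4, a brake on glucose oxidation that fasting also induces, had 3529 and 635 counts in the grafts (-2.21), TSC22D3 1065 and 310 (-1.52) and KLF15 655 and 201 (-1.44). FKBP5, the most used reporter of glucocorticoid action, had 6186 and 4148 (-0.32), above both untransplanted kidneys at 2026 and 2096. PER1 was lower, with 1774 and 651 (-1.19), and is also a clock gene. Among 19 circadian clock genes 5 (26.3%) were higher and 4 (21.1%) lower. ARNTL and CLOCK of the positive limb had 250 and 456 (1.12) and 451 and 782 (1.05), CLOCK not with total counts for scaling (0.95), whereas DBP and TEF, their output, had 35 and 10 (-1.50) and 728 and 196 (-1.63). The sources used here do not give the hour of sampling.

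Sterol and fatty acid synthesis genes were lower in 6 of 24 cases and higher in 1, with a median of -0.46. SREBF1 had 505 and 120 counts (-1.81), FASN 453 and 116 (-1.70) and SCD 999 and 278 (-1.58). The untransplanted pair had a wider gap in this group, with 13 lower, none higher and a median of -1.07. Antioxidant genes and NRF2 targets, taken as 1 list, had 4 of 30 (13.3%) higher and 7 (23.3%) lower, with a median of -0.33. GPX3, a secreted peroxidase made by the proximal tubule (chromosome 16, 71980467 to 71989011), had 63312 and 12347 counts (-2.10), or 5110 and 1190 scaled CPM. On the higher side were SRXN1, SLC7A11 and GCLC, with 963 and 2653 (1.72), 33 and 78 (1.49) and 212 and 360 (1.02). GCLC was not called with total counts for scaling (0.92). The 7 lower members included AKR1A1, with 1624 and 358 (-1.92), and CAT, given above. HMOX1 was below 0 without being called (-0.68). Cytosolic ribosomal protein genes were lower as a group, with 75 of 77 below 0, 10 called lower, none called higher and a median of -0.64. RPS14 had 10576 and 3163 counts (-1.48), against 7321 and 3010 in the untransplanted kidneys. The summed level of the group was 67440 scaled CPM in the 4-week graft and 42480 in the 6-week graft, and 45350 and 47130 in the untransplanted kidneys, so the 4-week graft stood apart.

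The widest single differences included drug and hormone metabolism. CYP2C49, a cytochrome P450 (chromosome 14, 106571803 to 106612082), had 519 counts in the 4-week graft and 4 in the 6-week graft (-6.59, -8.64 to -5.40), and 357 and 93 in the untransplanted kidneys. CYP2A19 and CYP2C32 had 175 and 6 (-4.50) and 119 and 9 (-3.40). The untransplanted kidneys had 2150 and 1315 counts of CYP2A19 (-0.59, not called) and 295 and 51 of CYP2C32 (-2.40, called lower). These genes have close copies in the pig, and their reads may be shared. INMT, an indole methyltransferase, had 160 and 2 counts (-5.75, -9.12 to -4.19) against 891 and 1112 in the untransplanted kidneys. SULT2A1, a steroid sulfotransferase, had 126 and 1 counts in the grafts and 3 and 1 in the untransplanted kidneys, so the 4-week graft was the high library. HAAO of tryptophan breakdown had 2627 and 204 (-3.42), the flavin monooxygenase FMO1 1506 and 129 (-3.28), and the mitochondrial carrier SLC25A34 325 and 14 (-4.23). FMO1 was also called lower between the untransplanted kidneys, with 4879 and 1836 counts (-1.29), whereas HAAO and SLC25A34 were not called there.

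On the higher side CYP4A24, a fatty acid hydroxylase, had 4 and 253 counts (6.07, 4.87 to 8.13), but 4 and 1631 in the untransplanted kidneys, so its gap was wider outside a recipient. JPH2, which encodes junctophilin 2 of membrane junctions in muscle, had 23 and 917 counts in the grafts (5.54, 4.98 to 6.24) and 68 and 213 in the untransplanted kidneys. TEX14, known from germ cell bridges (chromosome 12, 34815472 to 34975901), had 3064 and 23597 (3.20, 3.15 to 3.26). PLXNC1, a semaphorin receptor, had 165 and 1124 (3.02), and SNAP25 15 and 129 (3.32). CLASP1, a microtubule-binding protein gene that overlaps a pseudogene, had one of the 8 widest differences downward in scaled CPM, with 24613 and 5304 counts (-1.96), while the untransplanted kidneys had 5317 and 4669. The 4-week graft was again the library that stood apart. Haemoglobin HBB had 3 and 46 counts in the grafts and 110 and 2114 in the untransplanted kidneys, and the part of red cell RNA in the results was not tested.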

How the data were processed

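Values in the deposited files are raw counts for gene symbols, with no normalization by the authors, as the whole numbers show. Per the labels' protocols, RNA came from a phenol and chloroform extraction and libraries from a kit named as Lexogen QuantSeq. The labels leave unsettled if reads come from transcript 3' ends, so counts are not compared between genes as levels. The submitters' processing notes name Bowtie2, bedtools and Sscrofa11.1. The sources used here give no versions, parameters, strand use, or handling of multi-mapping and primate reads. Reads of near-identical, overlapping or antisense genes cannot be told apart, and no molecular identifiers are mentioned.

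Lines of the 81 repeated symbols were summed. All 26466 symbols matched the RefSeq table of Sscrofa11.1, from which coordinates come. Counts were scaled by TMM over 4 libraries (edgeR 4.0.16, factors 1.07 and 1.00 in the 4-week and 6-week grafts), and log2 ratios used a prior count of 0.5. The interval method was tested on simulated data. Alternatives were DESeq2 1.42.0 size factors, TMM over the grafts only, total counts, TMM without ribosomal RNA and mitochondrial genes, minimum counts of 50 or 1, a prior count of 2, and intervals wholly past 2-fold. Named genes were, without LOC symbols and ribosomal RNA loci, the 12 highest and 12 lowest log2 ratios among called genes with 100 or more counts, the 8 largest differences in scaled CPM each way, up to 3 called members each way and the most abundant member of each list, and the counterparts of the edited genes. Some genes that the rule names are not reported here. Other list members were named after their values were seen. The members and lists were chosen with earlier results of these data known.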

Additional observations from a re-analysis of the deposited data

Results flagged for a closer look

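For 14 of the genes reported here the grafts were called in the opposite direction to the untransplanted kidneys. Over the 16316 genes with 10 or more counts in a graft and in an untransplanted library, 74 of the genes higher between the grafts (4.35%) were lower in the untransplanted pair. Of those lower between the grafts, 88 (4.85%) were higher there. The difference between the pairs was not tested, since each group had 1 library, and the values below are the excess of the graft log2 ratio over the untransplanted log2 ratio.

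The widest was PLET1, an epithelial surface protein gene, with an excess of -7.49, from 54 and 16 counts in the 4-week and 6-week grafts and 4 and 270 in the untransplanted kidneys, CD39/CD55 first. Of the collecting duct list, 3 genes met this, with -3.97 for SLC26A4, -3.59 for AQP2 and -2.91 for HSD11B2. The tight junction gene CLDN16 of the thick ascending limb had 2.75. The stress and injury genes GDF15, BAX and LCN2 had 4.16, 3.375 and 3.27. GDF15 rested on 8 and 20 counts in the grafts and 23 and 3 in the untransplanted kidneys, with a Wald interval of 2.17 to 6.15. The interferon-induced genes ZBP1, CXCL10 and IRF1 had 3.72, 3.64 and 3.22. The glycolytic gene PKM had 2.38, the clock gene ARNTL 2.33, and CIDEA, a lipid droplet gene, 3.16.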

How the results depend on the processing

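No called gene named in the text changed direction under the scaling and prior alternatives. With total counts, 6 values near 0 crossed it, the medians of the thick ascending limb and distal convoluted tubule list (-0.0814) and of the p53 list (-0.0036), and SLA-DRA (-0.0913), ACTA2, DAB2 and HADHB. Requiring 50 or more counts left 1201 genes higher, and 1376 lower. Requiring the counting interval to lie wholly past 2-fold left 751 higher and 819 lower genes, and 1412 genes whose graft ratio differed from the untransplanted ratio, because that rule is stricter by construction. Scaling by total counts shifted the median of all genes to -0.0989 and gave 1611 higher and 2350 lower genes, so 40.7% of calls were higher in place of 49.96%. With it COX3, NFKB1, UPK3A, EIF1AY, CLOCK, FLT1, GBP2, GCLC, IL18, KRT8 and MKI67 were no longer called and FXYD2 was called lower. With a prior count of 2, PCNA (-0.97), F10 (-0.96), IL18 (0.995) and MKI67 (0.98) were no longer called, and LTF, the 1 measured neutrophil gene, moved from 3.20 to 2.37. The other genes named in the text that were compared kept their calls under each scaling and prior. No paired analysis was possible because each group has 1 library and the labels carry no replicate numbers. Below about 10 counts only large ratios could be called.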

Other observations

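Among called genes, the most counts in either graft fell on LOC102163816, a long non-coding RNA locus (chromosome 2, 6749941 to 6794116, Sscrofa11.1). It was singled out after its values were seen. It took 0.86% of counts in the 4-week graft and 4.44% in the 6-week graft, with 99525 and 459371 counts, a log2 ratio of 2.47. The untransplanted kidneys had 30003 and 165430 counts, so the order and the size of the gap were alike in that pair, and the excess was -0.12. All lncRNA genes together took 4.41% of counts in the 4-week graft and 7.45% in the 6-week graft, and 3.98% and 4.87% in the untransplanted kidneys. Without that locus the lncRNA share was 3.55% in the 4-week graft and 3.01% in the 6-week graft, the opposite order.

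Among markers of other tissues, the urothelial gene UPK3A had 10 and 19 counts in the grafts, and KRT7, which injured tubules also express, 528 and 860 (0.96). Of Y-linked genes EIF1AY had 10 and 20 counts in the grafts and 5 and 3 in the untransplanted kidneys, too few to tell the sex of any kidney. In the heme and iron list 4 of 17 genes (23.5%) were higher and 3 (17.6%) lower. The iron uptake receptor TFRC had 58 and 118 counts (1.28), while the haem breakdown genes BLVRB and HMOX1 had 994 and 361 (-1.20) and 127 and 66 (-0.68).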
